A study of Rattus norvegicus with 6 samples.

Results

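The genes described are 10 components of the circadian clock: Bmal1 (Arntl on older arrays), Clock, Npas2, Per1, Per2, Per3, Cry1, Ciart, Nr1d1 and Dbp. They were taken by name, with no measured value used, as the array probes whose accession belongs to the rat RefSeq gene of that symbol. They had 23 of the 61537 non-control probes and were 10 of the 45433 genes and unnamed accessions on the array, and 9 of the 29938 genes tested. Ciart was the exception, with its single probe not well above background on any of 6 arrays.

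The samples are total RNA of the renal cortex of 6 male Sprague-Dawley rats, bought at 5 weeks of age and kept under 12 h of light and 12 h of dark. The vehicle group is 3 rats that received corn oil, and the phenylbutazone group is 3 rats dosed with phenylbutazone at 200 mg/kg/day, both for 4 weeks. Phenylbutazone blocks cyclooxygenases and is used against pain and inflammation in horses. Each rat had its own one-colour expression array, and the series names the 3 samples of a group as biological replicates. The hour at which each kidney was taken is not given in the sources used here, nor is the interval after the last dose.

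The clock is a loop of transcription and repression that runs in nearly every cell. The proteins BMAL1 and CLOCK, or NPAS2 in place of CLOCK, bind E-box sequences together and switch on the Per, Cry, Nr1d1, Dbp and Ciart genes, and the PER, CRY and CIART proteins then hold them back. NR1D1 (REV-ERB alpha) represses Bmal1, Npas2, Cry1 and other genes through ROR elements, and DBP activates genes through D-boxes, so the transcripts peak at different hours. In the kidney of nocturnal rodents Bmal1 and Npas2 are highest around the start of the light phase, Nr1d1 and then Dbp later in the light phase, and the Per genes around its end, with the clock known to set daily rhythms of sodium and water transport.

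The promoter sequences below show matches to the elements through which clock proteins act, where such matches were found. RefSeq promoter windows of the assembly GRCr8, from 250 bases before to 50 after the annotated start, were found for 9 of the 10 genes, 11 windows in all, with 2 each for Nr1d1 and Clock. Those 5 windows are printed that held a match to the E-box CACGTG, its variant CACGTT, the D-box TTATGTAA or TTACGTAA, or the ROR element, on either strand. Each is the 250 bases before the start, read along the gene, with the match in capitals.
Bmal1, chr1:176766078-176766327, plus strand: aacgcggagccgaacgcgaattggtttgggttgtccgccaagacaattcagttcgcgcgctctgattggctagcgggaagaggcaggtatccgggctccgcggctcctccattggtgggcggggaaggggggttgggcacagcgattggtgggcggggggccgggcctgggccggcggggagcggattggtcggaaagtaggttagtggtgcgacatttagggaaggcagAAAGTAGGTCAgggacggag
Nr1d1, chr10:84231813-84232062, minus strand: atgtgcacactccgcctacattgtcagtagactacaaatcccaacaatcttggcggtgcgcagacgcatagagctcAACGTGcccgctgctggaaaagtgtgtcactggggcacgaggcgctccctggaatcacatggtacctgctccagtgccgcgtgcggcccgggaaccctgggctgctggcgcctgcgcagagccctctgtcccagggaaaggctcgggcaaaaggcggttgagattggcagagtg
Nr1d1, second start, chr10:84229455-84229704, minus strand: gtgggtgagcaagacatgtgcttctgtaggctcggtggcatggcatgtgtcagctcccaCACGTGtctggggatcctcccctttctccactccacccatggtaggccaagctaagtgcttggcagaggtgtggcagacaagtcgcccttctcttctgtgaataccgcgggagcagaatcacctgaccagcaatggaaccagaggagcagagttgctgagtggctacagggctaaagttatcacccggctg
Per2, chr9:99496994-99497243, minus strand: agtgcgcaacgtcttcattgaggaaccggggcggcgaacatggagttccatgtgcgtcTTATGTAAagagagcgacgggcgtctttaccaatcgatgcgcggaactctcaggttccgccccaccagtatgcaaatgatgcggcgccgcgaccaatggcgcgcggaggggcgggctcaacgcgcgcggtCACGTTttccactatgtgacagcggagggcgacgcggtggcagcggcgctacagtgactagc
Ciart, chr2:186112247-186112496, minus strand: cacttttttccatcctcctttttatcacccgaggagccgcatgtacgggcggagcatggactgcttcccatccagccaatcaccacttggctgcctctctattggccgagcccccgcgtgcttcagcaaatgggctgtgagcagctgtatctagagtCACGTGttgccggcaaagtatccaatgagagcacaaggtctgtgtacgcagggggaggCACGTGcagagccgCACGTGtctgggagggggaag
The Bmal1 window held a ROR element at position -20, counted from the start, an element found in 0.356% of the 33469 promoter windows of the table. Ciart had 3 copies of CACGTG, at -93, -35 and -21, and the second Nr1d1 window had 1 at -191, where 6.42% of all windows hold at least 1. CACGTT stood at -62 in Per2 and, on the other strand, at -174 in the first Nr1d1 window, against 4.83% of all windows. Per2 also had the D-box at -192, found in 1.01% of windows. The windows of Dbp, Per1, Per3, Npas2 and Clock held none of these letters, and the cyclic AMP response element TGACGTCA was in 0 of the 11, against 1.83% of all windows. A match is a description of the sequence and was not tested for binding.

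Each level below is the log2 of the processed intensity minus the array's 75th percentile, so 0 is the level of a probe at that percentile. Levels of different genes come from different probes and are not compared with each other. Arrays had 65.2% to 68.4% of probes well above background, and 75th percentiles of 891 to 1003 intensity units. Vehicle 1 and vehicle 2 shared slide 1 and its scan day, and vehicle 3 and the 3 phenylbutazone arrays shared slide 2 and its scan day. Markers of the renal cortex were present, with all 5 proximal tubule markers tested, and their mean deviation from their own averages lay between -0.052 and 0.11 on every array. Other marker lists were less even. Thick limb markers (2 tested) stood at -0.81 in vehicle 3 and 0.51 in phenylbutazone 3, against -0.0010 to 0.15 elsewhere. Markers of medulla and papilla (3) ran from -0.34 in phenylbutazone 1 and vehicle 3 to 0.34 in phenylbutazone 2. Endothelial markers (3) were lowest in vehicle 3, at -0.28, and leukocyte markers (4) highest in phenylbutazone 3, at 0.34. Smooth muscle markers (3) ran from -0.24 in vehicle 1 to 0.19 in vehicle 2, and collecting duct markers (3) were highest in phenylbutazone 1, at 0.23. Vehicle 3 and phenylbutazone 3 were the arrays highest in Nr1d1, but not every list had its extremes there. The part of these markers in the clock gene values was not tested. The precision is limited by 3 arrays per group.

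No clock gene passed the comparison of phenylbutazone with vehicle, and neither did any other gene (0% of the 29938 genes tested, limma with Benjamini-Hochberg adjustment at 0.05). On the probe used for each gene, Dbp and Clock stood higher and Per3 lower in the phenylbutazone group with groups that did not overlap. The other 3 Per3 probes that passed the filter were higher by mean, and the other 3 Dbp probes had overlapping groups. Nr1d1, Cry1, Per1 and Per2 differed more between animals of 1 group than between the groups. By mean, 5 of the 9 measured clock genes were higher and 4 lower, where 52.8% of all genes tested were higher and 47.2% lower. A difference of 2-fold or more was seen in 0 of the 9, against 1.76% of all genes tested. Their limma adjusted p values ran from 0.401 to 0.924. At an unadjusted p under 0.05 there were 3 of 9 (2 higher, 1 lower), where 12.2% of all genes tested reached it, 5.97% higher and 6.24% lower. The same 3 had groups that did not overlap, against 21.5% of all genes tested, 12.1% higher and 9.39% lower.

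**Figure D1:**
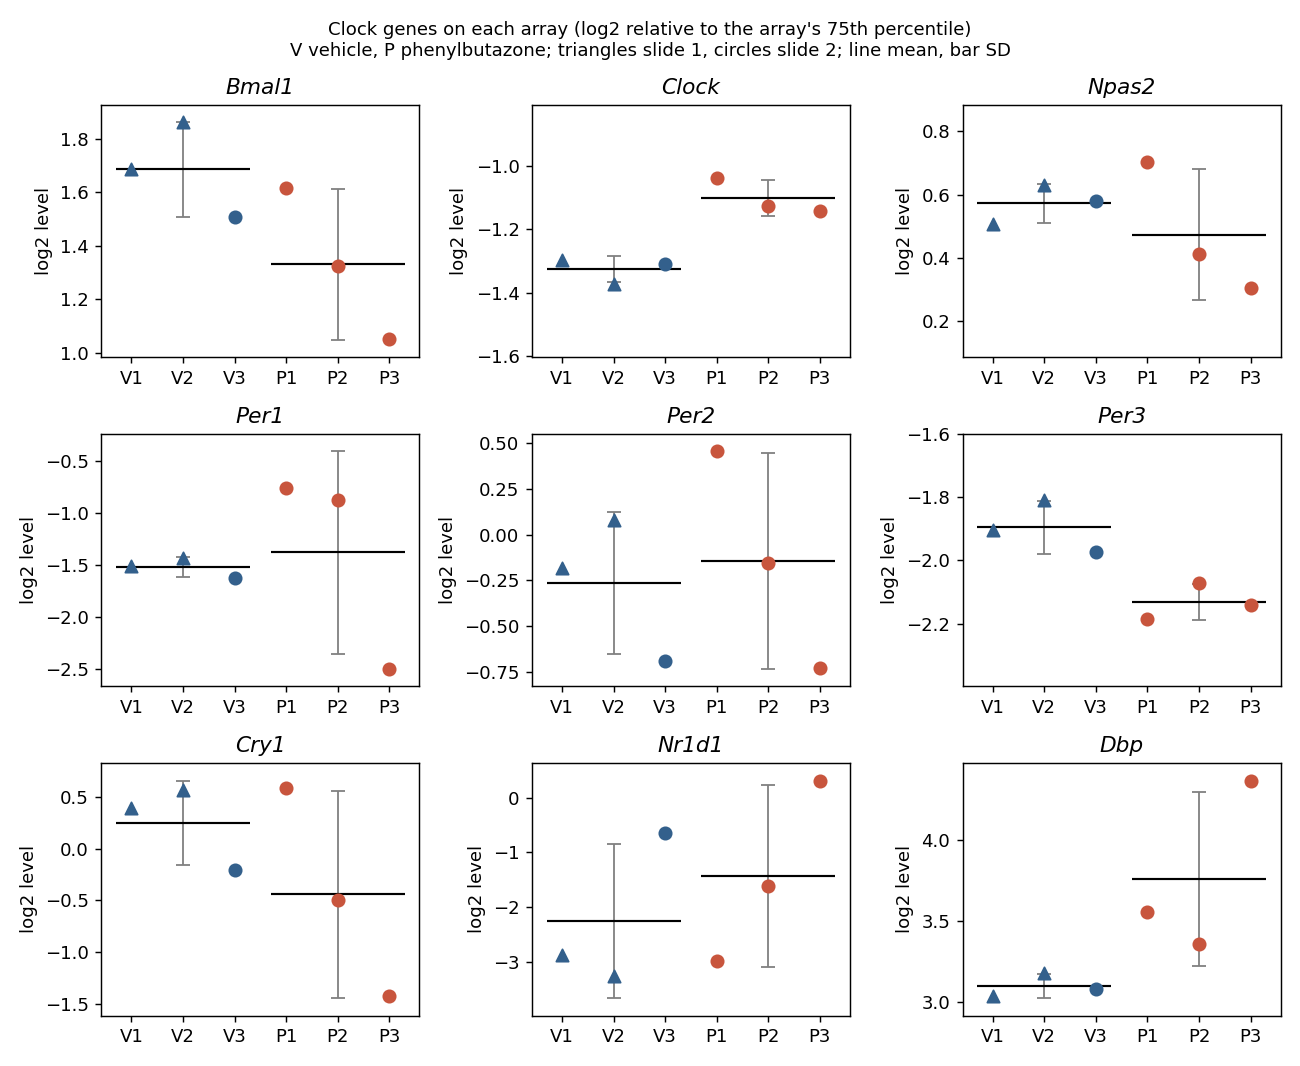
Log2 level of each measured clock gene on each of the 6 arrays (vehicle V1 to V3, phenylbutazone P1 to P3), 1 panel per gene with its own vertical scale; horizontal lines are group means and vertical bars the SD. Nr1d1 runs from -3.25 to 0.31 with both groups interleaved, whereas Clock, Per3 and Dbp have groups that do not overlap on the probe shown.

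Among the activators, Clock, the DNA-binding partner of BMAL1, had levels of -1.30, -1.37 and -1.31 in vehicle 1, 2 and 3 and of -1.04, -1.13 and -1.14 in phenylbutazone 1, 2 and 3. All 3 treated animals lay above all 3 controls, by a small step with little scatter. The difference was 0.22 ± 0.090 (SE, n = 3 per group), 1.17-fold, with a limma adjusted p of 0.401. Its other probes differed by 0.23, with groups that overlapped, and by 0.20, with groups that did not. Against vehicle 3 alone, the only control on slide 2, the difference was 0.21. Under all 20 alternatives Clock stayed between 0.17 and 0.27, at limma adjusted p values of 0.172 to 0.714. Some of these alternatives cannot change a difference.

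Bmal1, the obligate partner of CLOCK and NPAS2, had levels of 1.69, 1.86 and 1.51 in vehicle 1, 2 and 3 and of 1.62, 1.32 and 1.05 in phenylbutazone 1, 2 and 3. Phenylbutazone 1 lay inside the range of the controls and the other treated animals lay below it. The difference was -0.35 ± 0.18 (SE, n = 3 per group), with a limma adjusted p of 0.470, and the other Bmal1 probe gave -0.37. It was -0.18 within slide 2 and -0.22 without phenylbutazone 3, which had the lowest value.

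Npas2, the paralogue that can stand in for CLOCK, had levels of 0.51, 0.63 and 0.58 in vehicle 1, 2 and 3 and of 0.70, 0.41 and 0.30 in phenylbutazone 1, 2 and 3. The treated animals spanned the controls on both sides. Its difference of -0.10 ± 0.13 (SE, n = 3 per group) had a limma adjusted p of 0.785. It was -0.014 without phenylbutazone 3, -0.21 without phenylbutazone 1, -0.052 with scaling to the array median and -0.014 with normexp background correction. The other Npas2 probes differed by -0.087 and -0.26, both with overlapping groups.

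Among the repressors of the negative limb, Cry1, whose protein binds and silences the CLOCK-BMAL1 pair, had levels of 0.39, 0.57 and -0.21 in vehicle 1, 2 and 3. The values were 0.59, -0.49 and -1.42 in phenylbutazone 1, 2 and 3. The highest and the lowest animal were thus both treated, 4.02-fold apart. Cry1 differed by -0.69 ± 0.51 (SE, n = 3 per group), with a limma adjusted p of 0.609. Without phenylbutazone 3 it differed by -0.21, and without phenylbutazone 1 by -1.21.

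Per1, which answers quickly to light, glucocorticoid and feeding signals, had levels of -1.51, -1.43 and -1.62 in vehicle 1, 2 and 3 and of -0.76, -0.87 and -2.50 in phenylbutazone 1, 2 and 3. The controls agreed closely, while 2 treated animals lay above them and phenylbutazone 3 lay below. The difference was 0.14 ± 0.46 (SE, n = 3 per group, limma adjusted p = 0.924). It was 0.70 without phenylbutazone 3 and changed sign to -0.17 without phenylbutazone 1 and to -0.11 without phenylbutazone 2. The second Per1 probe showed phenylbutazone 3 lowest as well, at -4.46 against -3.67 and -3.84 in the other treated animals and -4.38 to -4.02 in the controls.

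Per2, a core repressor, had levels of -0.18, 0.077 and -0.69 in vehicle 1, 2 and 3 and of 0.45, -0.16 and -0.73 in phenylbutazone 1, 2 and 3. Vehicle 3 and phenylbutazone 3 were nearly level at the bottom, 1 in each group. The difference was 0.12 ± 0.34 (SE, n = 3 per group), with a limma adjusted p of 0.907, and it was 0.55 within slide 2 and -0.18 without phenylbutazone 1.

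Per3, the third Period gene, had levels of -1.90, -1.81 and -1.97 in vehicle 1, 2 and 3 and of -2.18, -2.07 and -2.14 in phenylbutazone 1, 2 and 3. All treated animals lay below all controls, with a difference of -0.24 ± 0.096 (SE, n = 3 per group) and a limma adjusted p of 0.404. The direction rested on that probe, the one of 5 with the highest mean level. Another 3 probes of Per3 gave 0.16, 0.31 and 0.40, each with overlapping groups, and the fifth was not well above background on any array. The mean over the probes that passed the filter differed by 0.16. Of those 3, the probe at 0.31 was well above background on 2 of 3 vehicle arrays and the probe at 0.40 on 1 of 3.

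Ciart, which encodes a repressor also called CHRONO, was not well above background in either group, so it has no difference here.

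Nr1d1, which encodes the heme-binding repressor of Bmal1, varied most. Vehicle 1, 2 and 3 had levels of -2.87, -3.25 and -0.64, and phenylbutazone 1, 2 and 3 had levels of -2.99, -1.62 and 0.31. Low and high animals occurred in both groups, and the span from vehicle 2 to phenylbutazone 3 was 3.57 log2 units, or 11.8-fold. Nr1d1 differed by 0.83 ± 1.01 (SE, n = 3 per group), with a limma adjusted p of 0.770. Against vehicle 3, its only control on slide 2, the treated mean was lower, at -0.79, and without phenylbutazone 3 the difference was -0.046. Vehicle 3 stood 2.42 above the mean of vehicle 1 and 2, which were on the other slide. The 3 phenylbutazone arrays, all on slide 2, spanned -2.99 to 0.31 by themselves.

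Dbp, the clock-output activator of D-box genes, had levels of 3.03, 3.18 and 3.08 in vehicle 1, 2 and 3 and of 3.55, 3.35 and 4.36 in phenylbutazone 1, 2 and 3. All treated animals were higher than all controls, and phenylbutazone 3 was far above the others. The difference was 0.66 ± 0.26 (SE, n = 3 per group), 1.58-fold, with a limma adjusted p of 0.401. Against vehicle 3 alone it was 0.68, and without phenylbutazone 3 it was 0.36. The other 3 Dbp probes differed by 0.57, 0.46 and 0.47, and in each of them the groups overlapped, since phenylbutazone 2 lay below vehicle 3. Dbp stayed higher in phenylbutazone under all 21 alternatives, from 0.36 to 0.86, at limma adjusted p values of 0.302 to 0.657. As for Clock, some of these could not change the difference.

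**Figure D2:**
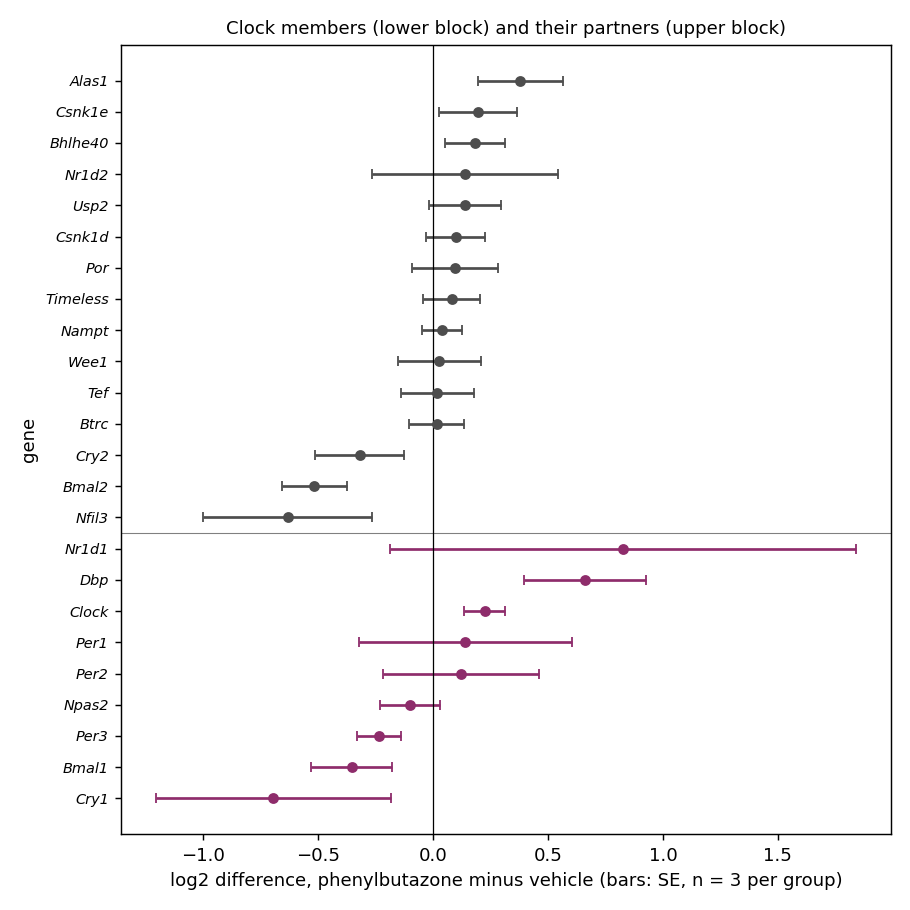
Log2 difference of phenylbutazone minus vehicle for the 9 measured clock genes (lower block) and the partner genes of the clock named in the text (upper block), with bars of 1 SE at n = 3 per group. The differences of Nr1d1 (0.83 ± 1.01) and Cry1 (-0.69 ± 0.51) have the widest bars of the lower block, and Clock (0.22 ± 0.090) the narrowest.

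The clock genes fell into loosely and tightly spread sets when the scatter between animals of the same group was set beside all genes tested. The SD within groups, pooled over both, was 1.54 log2 units for Nr1d1, a value that 208 of the 29938 genes exceeded, against a median of 0.20 over all genes. It was 0.77 for Cry1, 0.69 for Per1, 0.50 for Per2 and 0.38 for Dbp, at percentiles of 96.5, 95.7, 91.0 and 83.9 among all genes tested. Bmal1 (0.24) and Npas2 (0.15) lay near the middle. Per3 (0.071) and Clock (0.050) lay at percentiles of 7.67 and 2.82. Clock is known in other tissues for a shallow daily rhythm, and Nr1d1 for one of the deepest. The part of daily rhythm in the spread seen here was not tested, and the hour of sampling is not given.

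**Figure D3:**
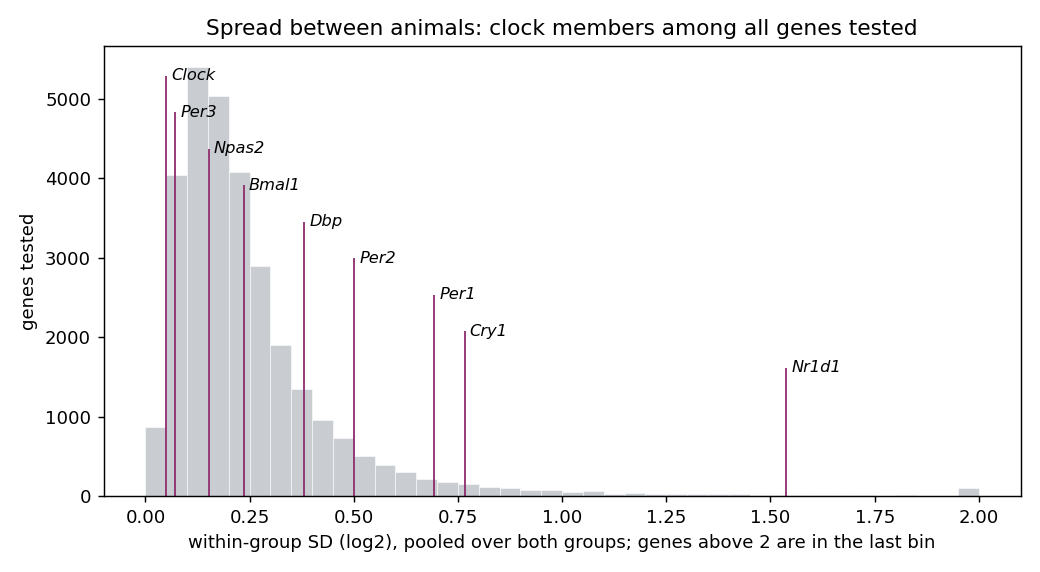
Number of genes tested (vertical axis) by SD within groups in log2 units (horizontal axis), with the 9 measured clock genes marked by lines whose height has no meaning. Nr1d1 at 1.54 stands far to the right of the median of 0.20, and Clock at 0.050 to the left of it.

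On the probes used for each gene, part of the scatter was shared, in an order of animals that crossed the groups. Ordered by Nr1d1 from low to high, the animals ran vehicle 2, phenylbutazone 1, vehicle 1, phenylbutazone 2, vehicle 3 and phenylbutazone 3. Cry1 took nearly the reverse order, with phenylbutazone 1, vehicle 2 and vehicle 1 at the top and phenylbutazone 3 at the bottom. Bmal1 was lowest in phenylbutazone 3 on both probes and highest in vehicle 2 on the probe used but in vehicle 3 on the other, and Per2 highest in phenylbutazone 1 and lowest in phenylbutazone 3. As a description over 6 arrays, which share no animal but fall on 2 slides, Pearson's r with Nr1d1 was -0.93 for Cry1, -0.88 for Bmal1 and -0.88 for Per2, each with a Spearman's rho of -0.89. Of all genes tested, 0.428% had an r with Nr1d1 as low as that of Cry1, 1.23% as low as that of Bmal1 and 1.40% as low as that of Per2. Cry1 and Per2 have a single probe each. The other Bmal1 probe had an r of -0.59 and a rho of -0.43, so the relation of Bmal1 was weaker there.

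Without vehicle 3 and phenylbutazone 3, the arrays farthest from the median of Nr1d1, r over the 4 left was -0.99 for Cry1, -0.95 for Bmal1 and -0.49 for Per2. Per1 (r = -0.69) turned to 0.48 without them, so its relation rested on those arrays. The second Per1 probe had an r of -0.76. Npas2 had an r of -0.72, but 0.15 and -0.33 on its other probes. Per3 had an r of -0.43, but 0.50, 0.85 and 0.43 on its other probes, and Clock had 0.18, with 0.13 and 0.54 on its others. Dbp, which shares its activator with Nr1d1, had an r of 0.61 with a rho of 0.26, and 0.21 without the same arrays. Its other 3 probes had an r of 0.75, 0.73 and 0.79, each with a rho of 0.54. All 4 Dbp probes were highest in phenylbutazone 3. Vehicle 3, where Nr1d1 was also high, lay between the other controls on the probe used and above both on the other 3.

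**Figure D4:**
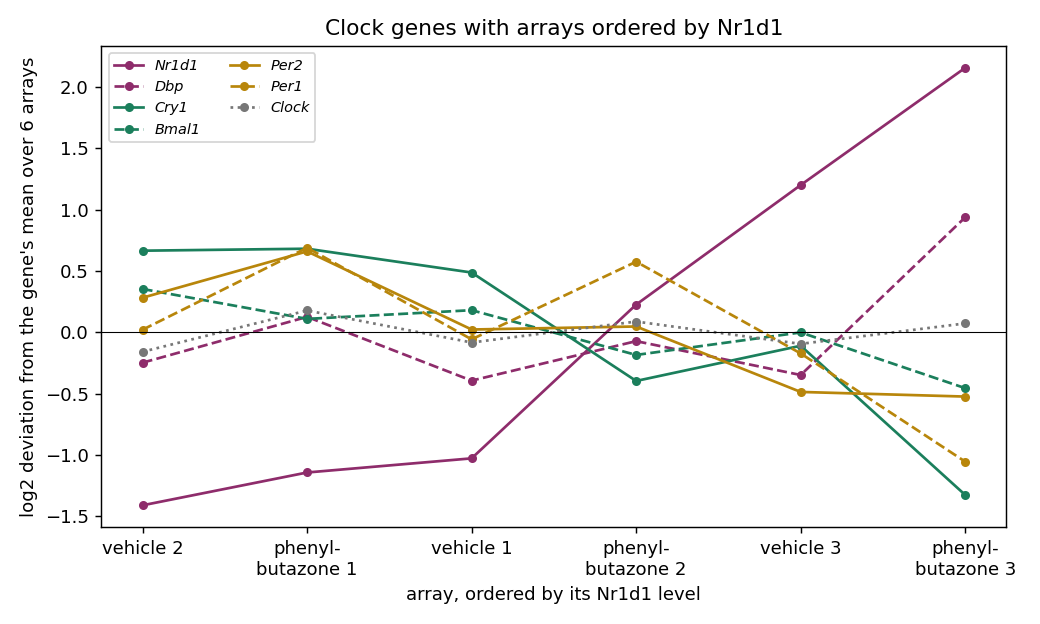
Deviation of each of 7 clock genes from its own mean over the 6 arrays, in log2 units (vertical axis), with the arrays placed from lowest to highest Nr1d1 (horizontal axis). Cry1 goes from 0.66 in vehicle 2 to -1.33 in phenylbutazone 3 as Nr1d1 goes from -1.41 to 2.16, and vehicle and phenylbutazone arrays alternate along the axis.

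A single value per animal was formed to set opposite phases against each other. It was the mean deviation of Per1, Per2, Per3, Nr1d1 and Dbp, the genes that peak in the later light phase or around its end, minus that of Bmal1, Clock and Npas2. Vehicle 1, 2 and 3 had values of -0.30, -0.33 and 0.059. Phenylbutazone 1, 2 and 3 had values of -0.12, 0.21 and 0.48. The group means were -0.19 ± 0.22 and 0.19 ± 0.30 (SD, n = 3 each), and vehicle 3 lay between the treated animals. The difference of 0.38 was 0.13 against vehicle 3 alone and 0.23 without phenylbutazone 3. No test was made, since the value is a score over chosen genes. Its first set was not uniform, since Per2 had an r of -0.88 and Per1 of -0.69 with Nr1d1. Nor was the second, where Clock had an r of -0.54 with Bmal1. The deviations were not scaled, so genes with a wide spread, such as Nr1d1, weigh most in it.

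The partners of these genes were 17 of 22 listed on the array, of which 16 were tested, 12 higher and 4 lower, with a median difference of 0.059 beside 0.015 over all genes tested. The median was 0.0065 without vehicle 3, 0.032 without vehicle 1 and 0.035 without phenylbutazone 2. None passed (limma), and at an unadjusted p under 0.05 there was 1, lower, against 12.2% of all genes tested. That gene was Bmal2, a paralogue of Bmal1. Its levels were -3.10, -3.30 and -3.58 in the controls, against -3.91, -3.84 and -3.79 in the treated animals, so the groups did not overlap. The difference was -0.52 ± 0.14 (SE, n = 3 per group), with a limma adjusted p of 0.303.

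Tested partners of the ROR element and D-box arms had groups that overlapped. Nr1d2, the close paralogue of Nr1d1, had levels of -3.77, -3.78 and -3.47 in vehicle 1, 2 and 3 and of -4.49, -3.18 and -2.93 in phenylbutazone 1, 2 and 3, a difference of 0.14 ± 0.41 (SE, n = 3 per group). Its lowest and highest animals were both treated, and phenylbutazone 3 was highest as for Nr1d1. Over the 6 arrays Nr1d2 had an r with Nr1d1 of 0.79, which 2.73% of all genes tested reached, and a rho of 0.89. Without vehicle 3 and phenylbutazone 3 the r was 0.73. Nfil3, the repressor that competes with DBP for D-boxes, had levels of -0.14, -0.29 and 0.18 in the controls and of -0.061, -0.58 and -1.50 in phenylbutazone 1, 2 and 3. Phenylbutazone 3 was lowest for Nfil3 and highest for Dbp. The difference of Nfil3 was -0.63 ± 0.37 (SE, n = 3 per group), with a limma adjusted p of 0.526. Tef, an activator related to DBP, differed by 0.018 ± 0.16.

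Of the other repressors, Cry2 differed by -0.32 ± 0.19 and Bhlhe40, which competes for E-boxes, by 0.18 ± 0.13. The kinase genes Csnk1d and Csnk1e, whose products mark PER proteins for turnover, differed by 0.098 ± 0.13 and 0.20 ± 0.17. Btrc, a ubiquitin ligase gene whose product removes PER proteins, stood at 0.016 ± 0.12, and Timeless at 0.080 ± 0.13. Among rhythmic output genes, Alas1, which encodes the first enzyme of heme synthesis, stood at 0.38 ± 0.18, Usp2 at 0.14 ± 0.16, Por at 0.096 ± 0.19, Nampt at 0.038 ± 0.087 and Wee1 at 0.028 ± 0.18. Bmal2 was the only 1 of the 16 partners whose groups did not overlap, against 21.5% of all genes tested, 9.39% lower. The limma adjusted p values of the partners reached 0.974.

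Renal transport and signalling genes known to be under clock control showed no common direction. Of 10 tested, 4 were higher and 6 lower, with a median of -0.087, and 0 had an unadjusted p under 0.05 in limma, against 12.2% of all genes tested. The 3 of smallest p were Fxyd5, which encodes a regulator of the sodium pump (0.23 ± 0.11, SE, n = 3 per group), Edn1, which encodes endothelin 1 (0.34 ± 0.23), and Avpr2, which encodes the vasopressin receptor of the collecting duct (-0.31 ± 0.21). The median had the opposite sign within slide 2 (0.15), without vehicle 2 (0.061) and without phenylbutazone 3 (0.041), and it was -0.17 without vehicle 1 and -0.21 without phenylbutazone 1.

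Lists of signals that reach the clock were also counted. Of 11 glucocorticoid-induced genes tested, 7 were higher and 4 lower, with a median of 0.25 and 2 at an unadjusted p under 0.05, both higher, against 5.97% higher of all genes tested. The median was 0.074 without phenylbutazone 2 and 0.15 without vehicle 3 or phenylbutazone 1. These were Fkbp5, which encodes a chaperone of the glucocorticoid receptor (0.74 ± 0.27, SE, n = 3 per group), and Mt1, a metallothionein gene (0.25 ± 0.10), with limma adjusted p values of 0.373 and 0.401. Klf9 was the third by p, at 0.20 ± 0.14. Immediate early genes had 6 higher and 4 lower of 10, with a median of 0.077 and Fosb (-0.21 ± 0.10), Btg2 (0.46 ± 0.23) and Junb (0.34 ± 0.17) in front. The median changed sign without phenylbutazone 2 (-0.020) or vehicle 3 (-0.015), and was 0.019 without vehicle 1 and 0.20 without phenylbutazone 3. Cold- and heat-responsive genes had 5 higher and 1 lower of 6, with a median of 0.20, led by Hspb1 (0.31 ± 0.16), Rbm3 (0.32 ± 0.19) and Cirbp (0.17 ± 0.13). Fasting and feeding genes had 6 higher and 2 lower of 8, with a median of 0.22. It was 0.096 without phenylbutazone 3, 0.11 without phenylbutazone 2, 0.34 without vehicle 3 and 0.35 without phenylbutazone 1. G6pc1, which encodes the catalytic subunit of glucose-6-phosphatase, was the only one of them at an unadjusted p under 0.05 (12.2% of all genes tested), at 0.50 ± 0.11 with a limma adjusted p of 0.259, followed by Angptl4 (0.66 ± 0.39) and Pck1 (-0.21 ± 0.14). No member of these lists passed (limma).

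Erythrocyte markers were higher in phenylbutazone by mean in 7 of 7 tested, against 52.8% of all genes tested, with a median of 0.46. At an unadjusted p under 0.05 in limma there were 0, against 5.97% higher of all genes tested. Groups that did not overlap were seen in 0, against 12.1% higher of all genes tested. The lowest limma adjusted p of these markers was 0.414. Their mean deviation ran from -0.37 to 0.054 in vehicle and was 0.37, -0.21 and 0.49 in phenylbutazone 1, 2 and 3. The highest erythrocyte values were those of phenylbutazone 3 and phenylbutazone 1. The part of these markers in the differences of Dbp, Clock and Per3, or in the scatter of the other clock genes, was not tested. In RNA of a whole tissue, fewer cells of a type and less RNA per cell cannot be told apart.

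Genes with the pattern most like that of a clock gene were named by the highest Pearson's r over the 6 arrays among genes with a symbol. For Bmal1 these were Pspn, Rbm14, Fam221a, Pip5k1b and Trim13, from 0.995 to 0.981, and 83 genes in all had an r above 0.95. For Dbp they were Serpina4, Sod2, Usp26, Cib1 and Nnt, from 0.992 to 0.982, and 66 genes had an r above 0.95. None of the 10 genes named is a clock gene. The clock gene Cry1, not among those named, had an r of 0.957 with Bmal1 on the probes used. In all cases 6 arrays are few for such a measure.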

How the data were processed

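RNA of 6 renal cortices was measured on one-colour Agilent arrays, 1 per rat. Per the submitters' processing notes, the software was Agilent Feature Extraction 10.7. Per the file headers, the deposited processed intensity comes with a background-subtracted signal and a spatial detrending fit within each array; no scaling between arrays is recorded. The deposited value table holds a ratio: it equalled the processed intensity over the array's 75th percentile within 1% for 100% of non-control values above 0.1 on every array. The scanner files name build rn4, and coordinates are given only for promoter windows of the assembly GRCr8.

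Of 62976 spots, 1439 controls and 40 probes with an outlier flag were left out. A level is the log2 intensity after subtraction of the 75th percentile of its array. The filter kept probes that were well above background on 3 or more arrays (66.6%). RefSeq accessions named 45.8% of probes, and a gene is its probe with the highest mean level. All 29938 genes were fitted together in limma 3.58.1 (R 4.3.3; lmFit, eBayes), with two-sided p values and Benjamini-Hochberg adjustment. The fit was tested on simulated data.

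The clock genes, the lists and the rule for named genes were chosen with earlier results of these data known. The rule names all clock genes and tested partners, the 3 genes of smallest p in each other list, and the 5 genes most like Bmal1 and Dbp; 1 tested partner is counted but not reported by name here. Alternatives covered scaling, normexp, quantile normalization, the deposited ratios, the filter, the choice of probe, an intensity trend, slide (fixed block, random block, slide 2 alone), a block on replicate numbers, and the removal of single replicates.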

Additional observations from a re-analysis of the deposited data

How the results depend on the processing

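Over 174 alternatives of the 9 measured clock genes, 13 changed the sign of a difference and 0 brought a gene past the threshold. Not all of them could change a difference. The intensity trend, the replicate block and the filter settings repeated the main difference of each gene. Slide as a fixed block and slide 2 alone gave the same difference, so they count as separate alternatives without being independent. Per3 turned to 0.16, 0.31 and 0.40 on its other probes and to 0.16 as the mean of all its probes that passed the filter. Nr1d1 turned to -0.79 with slide as a fixed block and within slide 2, to -0.21 with slide as a random block and to -0.046 without phenylbutazone replicate 3. Per1 turned to -0.029 with normexp, to -0.17 without phenylbutazone replicate 1 and to -0.11 without phenylbutazone replicate 2. Per2 turned to -0.091 without vehicle replicate 3 and to -0.18 without phenylbutazone replicate 1. Bmal1, Npas2 and Cry1 stayed lower and Clock and Dbp higher in every alternative run. Without 1 replicate each, Nr1d1 ran from -0.046 to 1.63, Per1 from -0.17 to 0.70 and Per2 from -0.18 to 0.41. The phase value stayed above 0, from 0.13 to 0.53.

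Over all genes limma called 2 with normexp, 1 with quantile normalization, 8 with an intensity trend and 1 with slide as a random block. Leaving out 1 replicate gave 0 to 814 calls, the 814 in the fit without vehicle replicate 3, which leaves each group on a slide of its own. Slide 2 alone rests on vehicle 3 as the only control, assumed to vary like the treated arrays. The median of the partner list was 0.11 with median scaling, which moved the median of all genes from 0.015 to 0.063, and between 0.0065 and 0.077 without 1 replicate each. With slide as a fixed block and within slide 2, the medians were 0.33 for immediate early genes, 0.15 for renal clock outputs and 0.024 for temperature genes, whose median was 0.088 as the mean of the probes. The cause was not tested.

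Deviations of same-numbered arrays correlated at -0.030, 0.011 and -0.074. These values gave no sign that the replicate numbers pair the samples, though they cannot exclude it. With the replicate number as a block limma called 0 genes, with 2695 at an unadjusted p under 0.05 against 3657 without it. The differences of the clock genes were the same, since a balanced block cannot change them, and none passed.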

Other observations

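Among the 68 genes of the lists set against Nr1d1 over the 6 arrays, a few outside the core clock had animals in a like or opposite order, and they are named here after their values were seen. Zbtb16, a glucocorticoid-induced transcription factor gene, had log2 levels of -4.28, -4.67 and -1.68 in vehicle 1, 2 and 3 and of -3.51, -2.17 and -1.66 in phenylbutazone 1, 2 and 3. It spanned 8.07-fold across animals, with vehicle 3 and phenylbutazone 3 nearly level at the top, and had an r with Nr1d1 of 0.92, a value that 0.364% of all genes tested reached. Tsc22d3, a glucocorticoid-induced leucine zipper gene, ran the other way, at 2.50, 2.89 and 1.82 in vehicle and 2.73, 2.58 and 1.78 in phenylbutazone, with an r of -0.93. Without vehicle 3 and phenylbutazone 3, r over the 4 arrays left was 0.93 for Zbtb16 and -0.56 for Tsc22d3. The glucocorticoid-induced genes Zbtb16 and Tsc22d3 thus went in opposite directions across the same animals. Differences between the groups were 1.09 ± 0.88 for Zbtb16 and -0.038 ± 0.36 for Tsc22d3 (SE, n = 3 per group), and neither passed (limma).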
